A study of Mus musculus with 2 samples.

Results

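The genes described here encode heterotrimeric G proteins, adenylyl cyclases and regulators of G protein signalling (RGS). They were chosen by symbol: the alpha subunit genes named Gnai, Gnao, Gnaq, Gnal, Gnaz, Gnat or Gna with a digit, Gnb1 to Gnb5, the Gng and Gngt genes, Adcy1 to Adcy10 and the Rgs genes with a number. Gnas, Gnat3, Gnb3, Gng13 and Rgs13 were left out, and Rgs21 was not analysed here. This gave 58 of the 37681 gene identifiers in the count files: 14 alpha, 4 beta and 11 gamma subunit genes, 10 adenylyl cyclase genes and 19 RGS genes.

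The tissue was epithelium from the corpus of the mouse stomach. All mice were C57BL/6 and transgenic for Hdc-CFP, a cyan fluorescent reporter of Hdc, the gene of the histamine-making enzyme histidine decarboxylase. The CFP-sorted library was made from cells collected for the reporter, and the CFP-depleted library from the corpus epithelium after those cells had been removed. Both groups thus carried the transgene, and each held 1 library. The sources used here do not give the number, age and sex of the mice or the promoter fragment that drives the reporter.

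A G protein is a switch made of an alpha subunit, which binds guanine nucleotides, and a beta-gamma pair. Receptors turn it on by loading the alpha subunit with GTP. Alpha subunits of the Gi class inhibit adenylyl cyclases, those of the Gs class stimulate them to make cyclic AMP, those of the Gq class activate phospholipase C beta, and those of the G12 class act on the actin cytoskeleton. RGS proteins speed up GTP hydrolysis and so switch Gi and Gq signals off. In ECL cells, endocrine cells of the corpus that release histamine, gastrin is known to act through a Gq-coupled receptor and somatostatin through a Gi-coupled one.

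The alpha genes that the results turn on differ at their coding end, the part of the protein that meets the receptor. The last 5 codons and the stop codon are shown 5′ to 3′ from GENCODE M21 transcripts (GRCm38), with the fourth codon before the stop in capitals. In Gi, Go and transducin genes this is the codon of the cysteine that pertussis toxin modifies, and Gz is known to be resistant to that toxin.
Gnao1: ggcTGCggcttgtactga
Gnai1: gacTGTggtctcttctaa
Gnai2: gacTGTggcctcttctga
Gnai3: gaaTGTgggctttattga
Gnat2: gacTGTgggctcttttaa
Gnaz: tacATCggcctttgctga
Gnaq: gagTACaatctggtctaa
Gna11: gagTACaacctggtgtga
The marked codon was TGT or TGC in Gnao1, Gnai1, Gnai2, Gnai3 and Gnat2, and ATC in Gnaz. It was TAC in Gnaq and Gna11. Gnao1 and Gnai2 each have 2 different ends among 3 complete coding transcripts, of which the end of the principal transcript is shown. The marked codon of the other end is TGT in Gnao1 and GAA in Gnai2, and counts per gene do not tell these transcripts apart.

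Gamma subunits end in a short box that receives a lipid anchor, and the last codon of that box sets whether a geranylgeranyl or a farnesyl group is attached. The last 4 codons and the stop codon of the gamma genes that the results turn on are shown from the same transcripts, with the last codon before the stop in capitals.
Gng4: tgcaccatcCTCtaa
Gng7: tgcataattCTCtag
Gng12: tgcatcatcTTAtag
Gng5: tgctcctttTTGtag
Gng2: tgcgccatcCTTtaa
Gngt2: tgtgtgctaAGCtga
Gngt2, a gamma gene known from cone photoreceptors, ended in AGC, and its product belongs to the farnesylated class. The other 5 ended in CTC, CTT, TTA or TTG, and their products belong to the geranylgeranylated class.

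Counts in genes summed to 10736538 in the CFP-sorted library, against 50928524 in the CFP-depleted library. Levels are normalised CPM, read counts scaled to a common library size, and brackets give exact 95% intervals that cover counting error only. A fold is the normalised CPM of CFP-sorted over that of CFP-depleted cells. Since each group held 1 library, no difference has a replicate check, all are between these libraries, and no p-value is given. In bulk RNA fewer cells of a type and less RNA per cell cannot be told apart. Hdc, the gene behind the reporter, was 383-fold higher [359 to 408], with 8422 CPM against 22.0 CPM, the direction the labels give. Of the marker lists for other cell types, the CFP-sorted library kept 1503 CPM of 6 parietal cell genes, against 11513 CPM in the CFP-depleted library, and 15.5 CPM of 11 macrophage and leukocyte genes, against 3271 CPM. It also held 8797 CPM of 6 pancreatic acinar genes, against 41.1 CPM. The 5 measured ones were all higher, Pnliprp1 alone gave 7317 CPM of that sum, and Cpa1 had 0 counts in both libraries.

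A gene was called measured with at least 10 counts in at least 1 library, which 48 of the 58 members were. Calls of higher or lower needed a fold of at least 2 and an interval that did not reach 1, where a fold against 0 counts was held to its bound at 3 counts. By this rule 18 of the 48 measured members (37.5%) were higher in the CFP-sorted library and 13 (27.1%) lower, while 20.5% of all 16682 measured genes were higher and 23.7% lower. With a fold of at least 4 and an interval beyond 2-fold, 15 members (31.2%) were higher and 6 (12.5%) lower, against 13.0% and 12.1% of all measured genes. The share lower was thus near that of all genes by either rule. The median log2 fold of the measured members was -0.01, beside -0.16 over all measured genes, and values reached from -6.70 for Gngt2 to 9.07 for Rgs9. The folds of the 48 members are drawn in order of size in the forest plot.

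**Figure D1:**
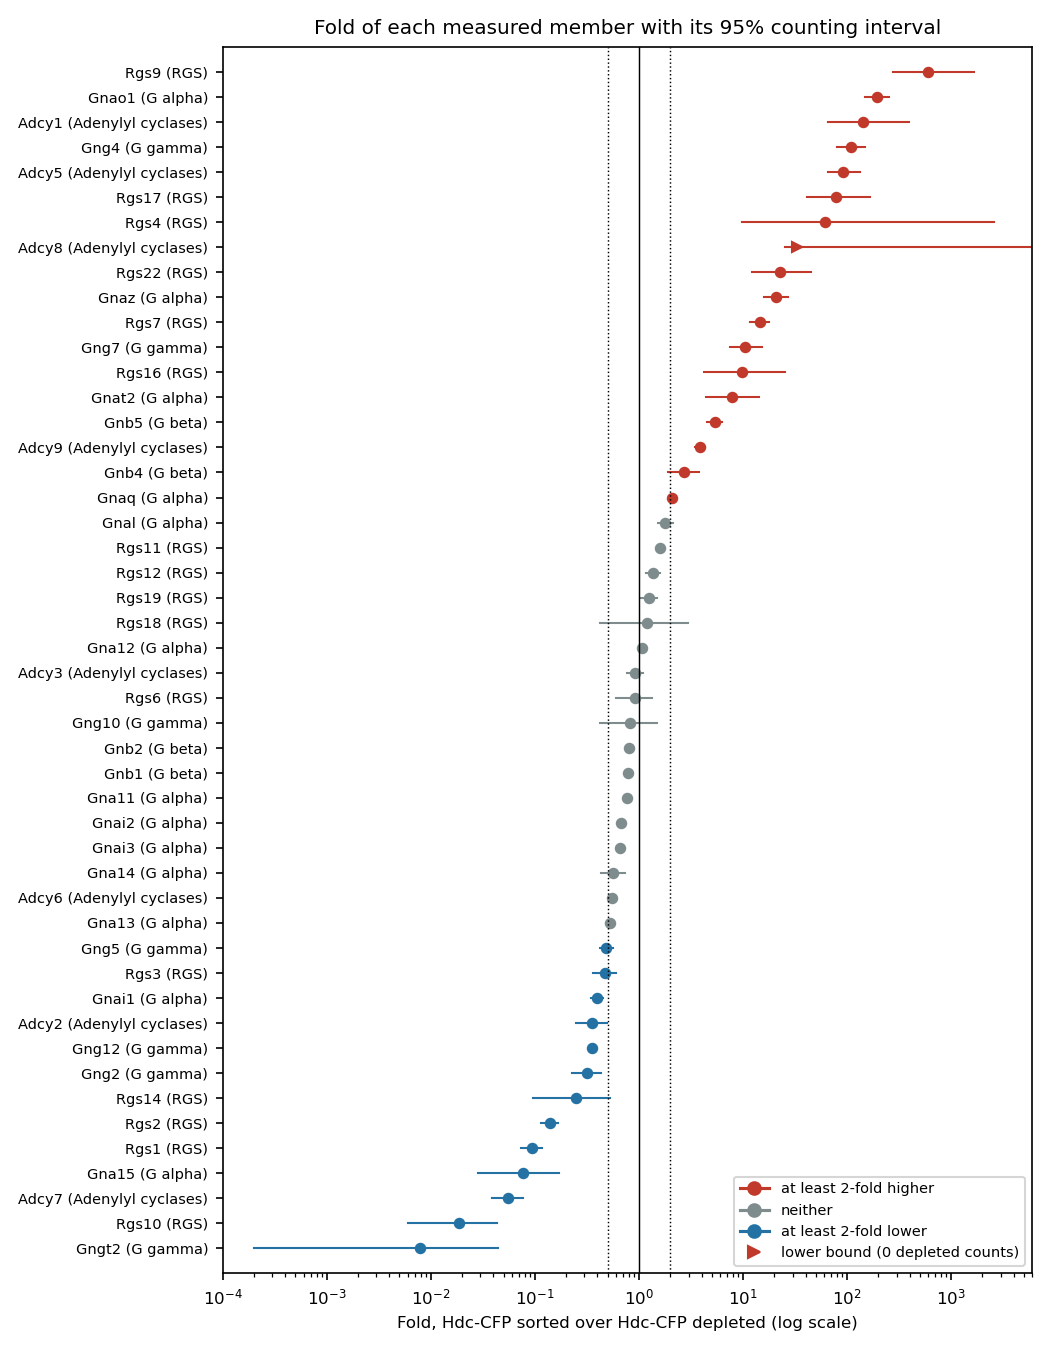
Fold of each of the 48 measured members, sorted over depleted library, on a log axis, with the 95% counting interval as a line and 2-fold marked by dotted lines. Rgs9, Gnao1, Adcy1 and Gng4 stand above 100-fold, Gngt2 and Rgs10 are the lowest, and the triangle for Adcy8 is a lower bound.

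The alpha subunit that set the libraries apart most was that of Go. Gnao1 (ENSMUSG00000031748), which encodes the Gi-class alpha subunit typical of neurons and endocrine cells, had 3442 counts in CFP-sorted cells and 61 in CFP-depleted cells. Its level was 272 CPM [263 to 281] in CFP-sorted cells and 1.41 CPM [1.08 to 1.81] in CFP-depleted cells, a 193-fold difference [149.7 to 253]. Gnaz, the alpha subunit of Gz, followed at 32.4 CPM [29.3 to 35.7] against 1.57 CPM [1.22 to 1.99] (20.6-fold higher [15.9 to 27.0]). Gnao1 has the cysteine codon TGC at the toxin site shown above and Gnaz has ATC, and both were higher.

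The 3 Gnai genes, which encode the widely used inhibitory subunits, did not share that direction. Gnai2 stood at 159 CPM [153 to 167] in CFP-sorted cells and 235 CPM [230.4 to 239.5] in CFP-depleted cells, 1.47-fold lower [1.40 to 1.55]. Gnai3 had 137 CPM [130.4 to 143] against 209 CPM [204 to 213], 1.52-fold lower [1.45 to 1.61]. Neither passed 2-fold. Gnai1, at 20.2 CPM [17.8 to 22.9] against 50.7 CPM [48.6 to 52.8], was 2.50-fold lower [2.20 to 2.86], a call that was lost without a scaling factor.

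Because long genes collect more reads, levels of different genes were compared per kilobase of exon model. On that scale Gnai2 (42.2 CPM per kb) and Gnai3 (41.9 CPM per kb) led the alpha genes of the CFP-sorted library, with overlapping intervals, followed by Gnaq (35.5), Gna11 (32.1) and Gnao1 (24.6 CPM per kb). In the CFP-depleted library Gnai3 (64.0 CPM per kb) and Gnai2 (62.2) also led, again with overlapping intervals, and Gnao1 stood at 0.128 CPM per kb. The ratio of Gnao1 to Gnai2 per kb was 0.583 in CFP-sorted cells and 0.00205 in CFP-depleted cells. The Gi, Go and Gz genes together made 54.4% of the summed alpha level per kb in CFP-sorted cells and 57.3% in CFP-depleted cells, so that the class as a whole held a like share while its make-up differed.

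Among the Gq genes, which link receptors to phospholipase C beta, Gnaq was the one that was higher. It stood at 219 CPM [211 to 228] in CFP-sorted cells and 106 CPM [103 to 109] in CFP-depleted cells (2.07-fold higher [1.97 to 2.17]). Gna11, its close relative, had 132 CPM [125 to 138] against 172 CPM [168 to 176], a fold of 0.766 [0.726 to 0.808] whose direction turned without a scaling factor. The ratio of Gnaq to Gna11 per kb was 1.10 in CFP-sorted cells and 0.409 in CFP-depleted cells. Gna14 had 5.37 CPM against 9.49 CPM (1.77-fold lower [1.36 to 2.32]). Gna15, the Gq-class subunit typical of blood cells, had 6 counts against 264, or 0.474 CPM [0.174 to 1.03] against 6.11 CPM [5.39 to 6.89] (12.9-fold lower [5.84 to 35.4]).

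The G12 genes stayed within 2-fold. Gna12 stood at 69.6 CPM against 64.6 CPM (1.08-fold [0.998 to 1.16]), within counting error and with 13.3% of its exon model overlapped by Amz1 on the opposite strand, and Gna13 at 73.7 CPM against 141 CPM (1.91-fold lower [1.78 to 2.05]). Gnal, the alpha subunit of Golf, which stimulates adenylyl cyclase, had 16.8 CPM [14.6 to 19.3] against 9.35 CPM [8.46 to 10.3] (1.80-fold [1.52 to 2.13]). It passed 2-fold without a scaling factor, at 2.50-fold. The transducin genes, known from photoreceptors, had few counts. Gnat2 had 41 counts against 18, or 3.24 CPM [2.33 to 4.40] against 0.416 CPM [0.247 to 0.658] (7.78-fold higher [4.37 to 14.4]), and Gnat1, with 7 against 6, was not measured.

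The 4 beta genes fell into an even and an uneven pair. Gnb1 and Gnb2, the general beta subunits, led both libraries. Gnb1 stood at 286 CPM [277 to 295] in CFP-sorted cells and 362 CPM [356 to 368] in CFP-depleted cells, and Gnb2 at 239 CPM [230.4 to 248] against 299 CPM [294 to 305]. Their folds of 0.790 and 0.798 stayed within 2-fold, and their direction turned without a scaling factor. Gnb5, the atypical beta subunit that pairs with RGS proteins of the R7 group, stood at 28.0 CPM [25.1 to 31.1] against 5.23 CPM [4.57 to 5.96] (5.35-fold higher [4.52 to 6.35]). Gnb4 had 5.30 CPM against 1.97 CPM (2.69-fold higher [1.93 to 3.75]). Per kb, Gnb1 and Gnb2 together still outweighed the others in both libraries, and the ratio of Gnb5 to Gnb1 was 0.134 in CFP-sorted cells and 0.0198 in CFP-depleted cells.

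The leading gamma gene differed between the libraries. Gng4, a gamma subunit known mainly from brain, stood at 111 CPM [105 to 117] in CFP-sorted cells and 1.02 CPM [0.740 to 1.37] in CFP-depleted cells, a 109-fold difference [80.5 to 150.2]. Gng7, known from striatum, where it serves with Golf, had 10.5 CPM [8.80 to 12.5] against 0.995 CPM [0.720 to 1.34] (10.6-fold higher [7.44 to 15.3]). Gng12, a broadly expressed gamma subunit, had 60.9 CPM [56.6 to 65.3] against 171 CPM [167 to 175] (2.82-fold lower [2.61 to 3.04]). Gng5 had 17.5 CPM [15.2 to 19.9] against 35.9 CPM [34.1 to 37.7] (2.05-fold lower [1.78 to 2.38]), a call that was lost under 4 of the 5 other scalings tried. Gng2 had 3.48 CPM against 10.9 CPM (3.12-fold lower [2.29 to 4.35]). Gngt2, the farnesylated one of those shown, had 1 count in CFP-sorted cells and 436 in CFP-depleted cells, or 0.0790 CPM [0.00200 to 0.440] against 10.1 CPM [9.16 to 11.1], which is 128 times as much after scaling in the CFP-depleted library [22.8 to 5053].

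Per kb, Gng4 made 58.1% of the summed gamma level in the CFP-sorted library and 0.517% in the depleted one, where Gng12 led with 61.5%, against 22.6% in the CFP-sorted library. The shares are drawn in the stacked bars of each family. Gng10 did not differ beyond counting error (1.11 CPM against 1.34 CPM), and 71.5% of its 50-base words also occur in a transcript that the annotation reads through from a neighbouring gene, so its count is uncertain. Gng2 (18.9%) shares such words with a noncoding RNA annotated on the opposite strand, and Gngt2 overlaps exons of Abi3, also on the opposite strand, over 12.5% of its exon model. Gng3, Gng8, Gng11 and Gngt1 were not measured, with at most 9 counts in either library.

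**Figure D2:**
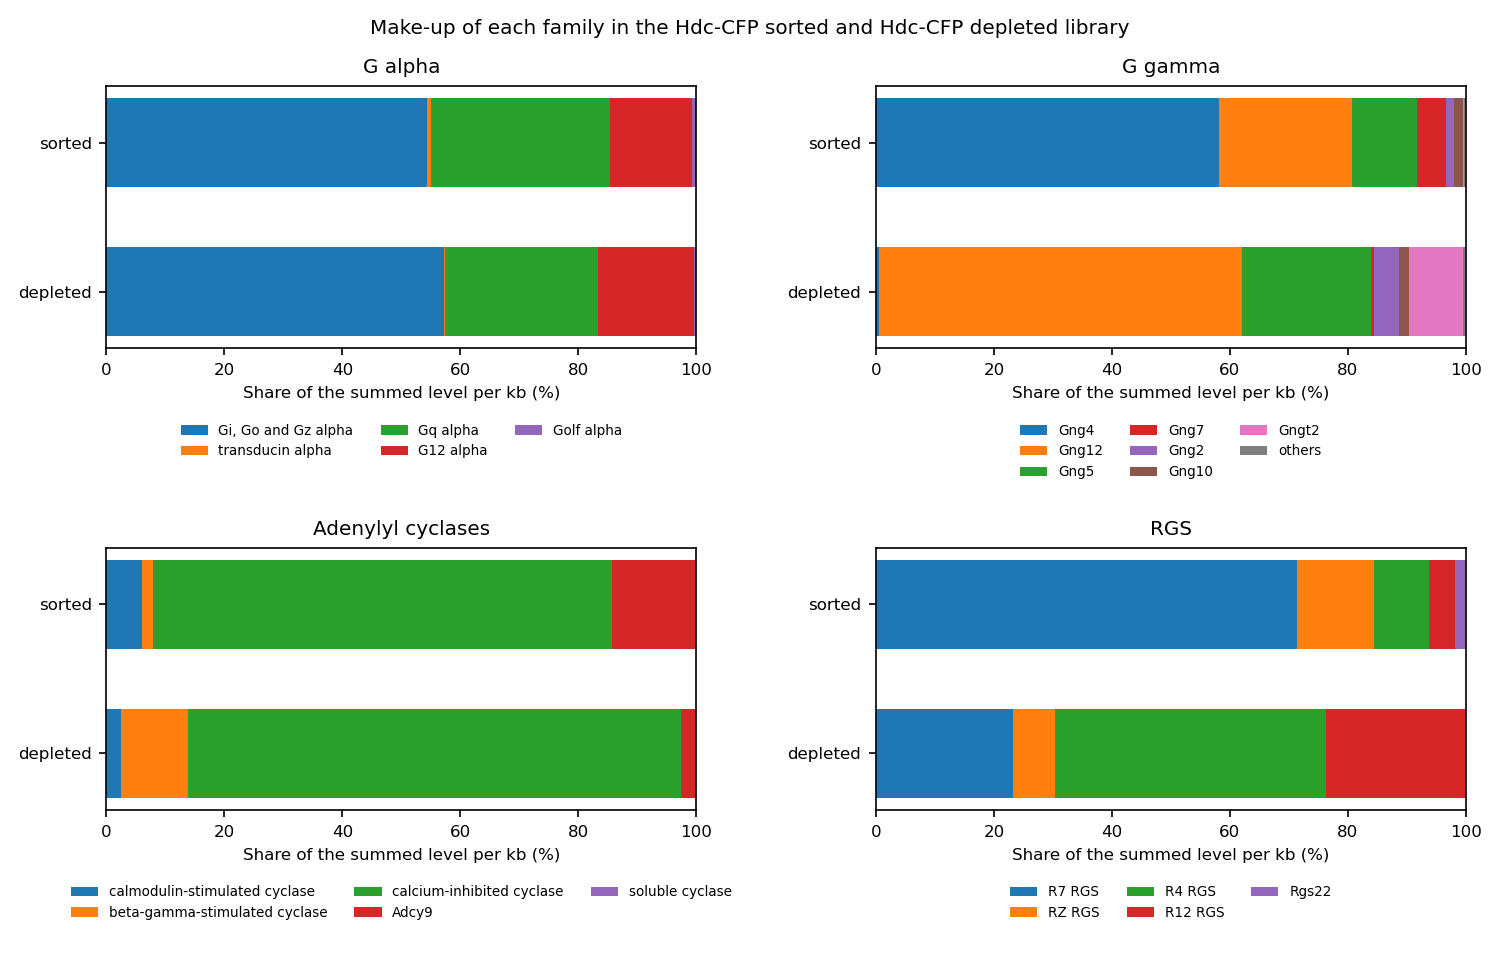
Share of each class or gene in the summed level per kb of its family, in percent, for the sorted (upper bar) and the CFP-depleted library (lower bar) in 4 panels. Gng4 takes 58.1% of the gamma level and the R7 group 71.3% of the RGS level in the CFP-sorted library, against 0.517% and 23.3% in the depleted one.

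Adenylyl cyclases are grouped by how calcium and beta-gamma subunits act on them, and members of 1 group could differ in their calls. Adcy6, a cyclase that calcium and Gi inhibit, led both libraries at 271 CPM [262 to 280.3] in CFP-sorted cells and 494 CPM [488 to 501] in CFP-depleted cells (1.82-fold lower [1.76 to 1.89]). Adcy6 did not reach 2-fold and was called neither way. Adcy5, its closest relative, stood at 70.4 CPM [65.9 to 75.2] against 0.764 CPM [0.526 to 1.07] (92.2-fold higher [65.2 to 135]). The ratio of Adcy5 to Adcy6 per kb was 0.245 in CFP-sorted cells and 0.00146 in CFP-depleted cells.

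Of the cyclases that calcium and calmodulin stimulate, Adcy1 and Adcy8 were higher and Adcy3 was not. Adcy1 had 253 counts in CFP-sorted cells and 6 in CFP-depleted cells, or 19.997 CPM [17.6 to 22.6] against 0.139 CPM [0.0509 to 0.302], a 144-fold difference [65.3 to 396]. Adcy8 had 29 counts, or 2.29 CPM [1.54 to 3.29], against 0 and was at least 33.0-fold higher, computed against a floor of 3 counts in the CFP-depleted library. Adcy3 had 12.6 CPM [10.8 to 14.8] against 13.7 CPM [12.7 to 14.9], within counting error. It overlaps exons of Cenpo on the opposite strand over 22.1% of its exon model, so its count is uncertain.

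Adcy9, which responds weakly to forskolin, had 47.3 CPM [43.6 to 51.2] against 12.2 CPM [11.2 to 13.3] (3.88-fold higher [3.44 to 4.37]). The cyclases that beta-gamma subunits stimulate went the other way where measured. Adcy7, known from blood cells, had 2.92 CPM [2.06 to 4.03] against 52.8 CPM [50.7 to 55.0] (18.1-fold lower [13.1 to 25.7]), and Adcy2 had 3.08 CPM against 8.63 CPM (2.80-fold lower [2.01 to 4.001]). Adcy4, with 0 counts against 9, and Adcy10, the soluble cyclase, with 2 against 0, were not measured. Adcy6 made 62.5% of the summed cyclase level per kb in CFP-sorted cells and 83.3% in CFP-depleted cells, Adcy5 15.3% against 0.121%, Adcy9 14.2% against 2.68% and Adcy7 0.679% against 8.96%.

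**Figure D3:**
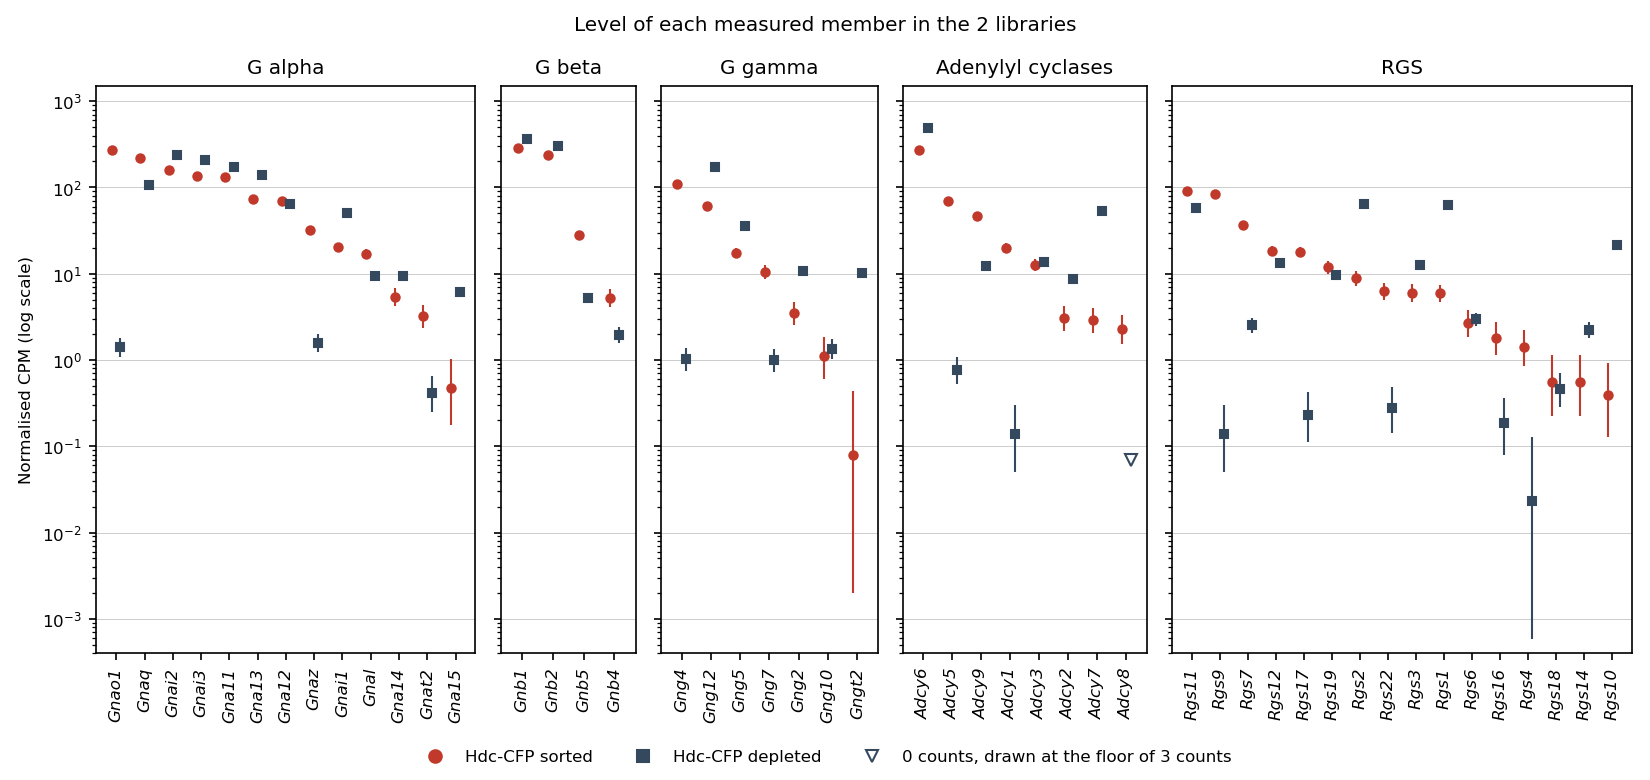
Normalised CPM on a log axis of the 48 measured members by family, with circles for the sorted and squares for the CFP-depleted library and 95% Poisson intervals as lines. The general subunits Gnb1 and Gnb2 lie close together in the libraries, while Gnao1, Gng4, Adcy5 and Rgs9 lie far above their depleted values and Rgs1, Rgs10 and Adcy7 far below.

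The RGS genes held the largest fold of all members. Rgs9 (ENSMUSG00000020599), known from striatum and photoreceptors, had 1065 counts in CFP-sorted cells and 6 in CFP-depleted cells. Its level was 84.2 CPM [79.2 to 89.4] in CFP-sorted cells and 0.139 CPM [0.0509 to 0.302] in CFP-depleted cells, a 606-fold difference [278 to 1656]. Rgs9 belongs to the R7 group with Rgs6, Rgs7 and Rgs11, whose proteins bind Gnb5 and act on Gi and Go alpha subunits. Rgs7 stood at 36.4 CPM [33.2 to 39.9] against 2.52 CPM [2.07 to 3.04] (14.4-fold higher [11.7 to 17.97]). Rgs11 had the highest RGS level of the CFP-sorted library, 91.3 CPM [86.1 to 96.7] against 57.1 CPM [54.9 to 59.4], but its fold of 1.60 [1.49 to 1.72] stayed under 2. It passed 2-fold without a scaling factor, at 2.22-fold. Rgs6 had 2.69 CPM against 2.96 CPM and did not differ beyond counting error.

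Rgs7bp, which anchors R7 proteins to the membrane and is no member by the rule, stood at 91.7 CPM [86.5 to 97.1] in CFP-sorted cells and 1.06 CPM [0.779 to 1.42] in CFP-depleted cells (86.1-fold higher [64.2 to 118]). Rgs9bp, the anchor known from photoreceptors, had 18 counts against 16 (3.84-fold higher [1.85 to 8.05]). Thus Rgs9, Rgs7, Gnb5 and Rgs7bp of this complex were higher in the CFP-sorted library, while Rgs6 and Rgs11 were called neither way. Of its Gi and Go substrate genes, Gnao1 was higher, Gnai1 was lower, and Gnai2 and Gnai3 were called neither way. Per kb, the R7 genes made 71.3% of the summed RGS level in CFP-sorted cells and 23.3% in CFP-depleted cells.

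The R4 and R12 groups held less of the CFP-sorted library, with 9.37% and 4.33% of the RGS level per kb in the CFP-sorted library against 46.0% and 23.6% in the depleted one. Rgs2, an R4 protein that acts mainly on Gq, had 8.85 CPM [7.29 to 10.7] against 64.0 CPM [61.6 to 66.4] (7.23-fold lower [5.98 to 8.81]). Rgs1, known from lymphocytes, had 5.93 CPM [4.66 to 7.43] against 63.4 CPM [61.0 to 65.8] (10.7-fold lower [8.50 to 13.6]). Rgs10, an R12 protein known from microglia and macrophages, had 5 counts against 918, or 0.395 CPM [0.128 to 0.922] against 21.2 CPM [19.9 to 22.7] (53.8-fold lower [22.9 to 166]). Rgs14 had 7 counts against 97 (4.06-fold lower [1.90 to 10.4]). Rgs3 had 6.01 CPM against 12.8 CPM (2.13-fold lower [1.67 to 2.74]), a call lost under 4 of the 5 other scalings, and 11.4% of its 50-base words occur in another annotated gene.

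Both groups also held exceptions. Rgs4 had 18 counts against 1, or 1.42 CPM [0.843 to 2.25] against 0.0231 CPM [0.000586 to 0.129] (ratio 61.5 [9.71 to 2562]). Rgs16 had 23 counts against 8, or 1.82 CPM [1.15 to 2.73] against 0.185 CPM [0.0799 to 0.365] (9.82-fold higher [4.24 to 25.4]). Rgs12, with 18.2 CPM against 13.2 CPM (1.37-fold [1.17 to 1.60]), and Rgs18, with 7 counts against 20 (1.20-fold [0.427 to 2.94]), were called neither way. In the RZ group, whose members act on Gz and Gi, Rgs17 had 18.02 CPM [15.8 to 20.5] against 0.231 CPM [0.111 to 0.426] (77.9-fold higher [41.6 to 165]). Rgs19 had 11.9 CPM [10.03 to 13.9] against 9.58 CPM [8.68 to 10.5] (1.24-fold [1.02 to 1.495]). Rgs22 had 79 counts against 12, or 6.24 CPM [4.94 to 7.78] against 0.278 CPM [0.143 to 0.485] (22.5-fold higher [12.2 to 45.4]). Rgs5, Rgs8 and Rgs20 were not measured, with at most 9 counts in either library.

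Gngt2, Rgs10, Adcy7, Gna15, Rgs1 and Rgs2 were the 6 members lower at 4-fold, and marker levels of other cells are given beside them. Over all measured genes 12.1% were lower at 4-fold and 23.7% at 2-fold. All 11 macrophage and leukocyte markers were at least 4-fold lower, none was at 0 in the CFP-sorted library, and the list summed to 15.5 CPM in CFP-sorted cells and 3271 CPM in CFP-depleted cells. Csf1r, the macrophage growth factor receptor, had 0.395 CPM against 566 CPM (1433-fold lower [614 to 4413]). Tuft cell markers summed to 7.35 CPM against 259.7 CPM, with Ptgs1 and Pou2f3 at 0 counts in the CFP-sorted library. Red blood cell and platelet markers summed to 4.58 CPM against 38.3 CPM. Of the 5 measured ones only the platelet gene Pf4 was called, lower with 1 count against 1475. Itga2b (50 counts against 112, 1.52-fold [1.07 to 2.15]) and Gp9 (3 against 24), also platelet genes, were called neither way. Lymphocyte markers summed to 2.53 CPM against 3.63 CPM, and of the 2 measured ones Lck was 6.59-fold higher (27 counts against 14) and Cd79b lower (3 counts against 126). Cd3d, Cd3e, Cd3g and Ms4a1 had 0 counts in the CFP-sorted library and at most 4 in the CFP-depleted library. Surface and neck mucous cell markers summed to 4103 CPM against 160635 CPM, and chief cell markers to 15913 CPM against 68517 CPM. Pgc alone gave 14616 CPM against 62866 CPM of the chief cell sums. Pgc and Chia1 were lower, while Gif and Bhlha15 were called neither way, Bhlha15 with a fold of 1.76 [1.53 to 2.02]. Markers of endothelium, fibroblasts and smooth muscle summed to 3.003 CPM against 23.05 CPM, with Cdh5 and Col3a1 at 0 counts in the CFP-sorted library. Of these 8 genes 6 were lower at 2-fold and Kdr was called neither way. Myh11, a smooth muscle gene, was 3.11-fold higher [1.61 to 5.96], with 20 counts against 22. The part of any of these cells in the lower members was not tested.

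Marker levels are likewise given beside the higher members. Of the endocrine markers, which include Hdc, the gene behind the reporter used for sorting, 11 of 11 were at least 2-fold higher. Over all measured genes this share was 20.5%. The endocrine markers summed to 86610.4 CPM in CFP-sorted cells and 810.6 CPM in CFP-depleted cells. Of the 4 measured neuron and glia markers all were higher, among them Elavl4 with 300 counts against 4, while Sox10, which defines glia, had 0 counts in both libraries. Of 8 mast cell markers 6 were higher and none lower, with sums of 241.9 CPM against 92.3 CPM. The part of endocrine, neural, mast or acinar cells in the higher members was not tested.

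Beyond the members, 73 of 78 other genes of the pathway were measured, and 24 (32.9%) were higher and 21 (28.8%) lower at 2-fold. Over all measured genes, beside which the counts of each list below are to be read, these shares were 20.5% and 23.7% and the median log2 fold was -0.16. In the list of protein kinase A, EPAC and anchoring genes, 10 of 18 measured genes (55.6%) were higher and 3 (16.7%) lower, and the median log2 fold was 1.12. Prkar1a, a regulatory subunit of protein kinase A, stood at 774 CPM [759 to 789] in CFP-sorted cells and 224 CPM [219 to 228] in CFP-depleted cells (3.46-fold higher [3.36 to 3.56]). The catalytic subunit gene Prkacb was 8.86-fold higher [8.44 to 9.30], at 472 CPM against 53.3 CPM, whereas Prkaca was 1.41-fold higher and not called. Prkar1b, a regulatory subunit known from brain, was 39.7-fold higher [32.5 to 48.9]. Rapgef4, which encodes the cyclic AMP sensor EPAC2, was 7.63-fold higher [6.73 to 8.66], and the kinase inhibitor genes Pkia and Pkib were 26.5-fold [16.0 to 46.9] and 11.5-fold higher [9.66 to 13.8]. Akap5, an anchoring protein gene with 16 counts against 10, was 5.47-fold higher [2.33 to 13.5]. Akap13, another anchoring protein gene, stood at 141 CPM against 195 CPM.

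Phosphodiesterases, which break cyclic nucleotides down, were split. Of 15 measured genes 3 (20%) were higher and 8 (53.3%) lower, and the median log2 fold was -1.36. Pde10a had 92.2 CPM [87.0 to 97.7] against 0.301 CPM [0.160 to 0.514] (307-fold higher [179 to 578]), and Pde11a had 243 counts against 4 (208-fold higher [80.0 to 768]). Pde3b, at 123 CPM against 58.7 CPM, was 2.10-fold higher [1.97 to 2.23]. Pde4b, known from leukocytes, had 3 counts against 1057, which is 103 times as much after scaling in the CFP-depleted library [35.2 to 501]. Pde1b, Pde1c and Pde4c were 9.48-fold [4.74 to 22.2], 6.58-fold [5.42 to 8.06] and 4.76-fold lower [2.60 to 9.72], and Pde8a was 2.56-fold lower [2.32 to 2.84].

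Genes downstream of Gq were split as well. Of 15 measured genes of phospholipase C and inositol trisphosphate signalling, 4 (26.7%) were higher and 5 (33.3%) lower. Plcb4 stood at 123 CPM [117 to 129] against 17.2 CPM [16.0 to 18.5] (7.14-fold higher [6.54 to 7.81]), and Plcb3 at 44.7 CPM [41.1 to 48.6] against 216 CPM [211 to 220.2] (4.82-fold lower [4.43 to 5.26]). Plcb2, known from tuft and blood cells, had 1 count against 714. The protein kinase C genes Prkcb and Prkce were both 10.9-fold higher, while Prkcd was 8.77-fold lower [8.12 to 9.48]. Itpr3, an inositol trisphosphate receptor, had 190.0 CPM against 935 CPM (4.92-fold lower [4.72 to 5.13]). Dgkz, a diacylglycerol kinase, stood at 217 CPM against 140.1 CPM, and its relative Dgkb had 25 counts against 1.

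Among 8 measured receptor kinase and arrestin genes, 2 (25%) were higher and 2 (25%) lower. Grk3, a receptor kinase that beta-gamma subunits recruit, stood at 223 CPM [214 to 231] against 30.9 CPM [29.3 to 32.6] (7.21-fold higher [6.75 to 7.70]), while its relative Grk2 stood at 176 CPM against 165 CPM. Grk4 had 24 counts against 13 (6.31-fold higher [3.09 to 13.5]). Arrb1, which encodes an arrestin, was 4.25-fold lower [3.86 to 4.68], at 35.6 CPM against 151 CPM. Of 10 measured genes among other regulators, 5 (50%) were higher and 3 (30%) lower. Gpsm1, which binds inactive Gi alpha subunits, was 5.32-fold higher [4.39 to 6.45], and its relatives Gpsm2 and Gpsm3 were lower, Gpsm2 by 4.56-fold [3.65 to 5.75] and Gpsm3 with 1 count against 158. Of the cyclase-associated protein genes, which despite their name act on actin in mammals, Cap1 was 2.98-fold lower [2.83 to 3.13] and Cap2 had 42 counts against 3 (ratio 47.8 [15.3 to 241]). Ric8a, a chaperone of alpha subunits, stood at 56.2 CPM against 63.2 CPM. None of the 7 genes that act downstream of G12 and G13 was called at 2-fold, and their log2 folds lay between -0.91 and 0.15. Arhgef12 stood at 207 CPM against 201 CPM, Arhgef1 at 124 CPM against 137 CPM, Rock2 at 122 CPM against 228 CPM and Rhoa at 99.3 CPM against 173 CPM.

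**Figure D4:**
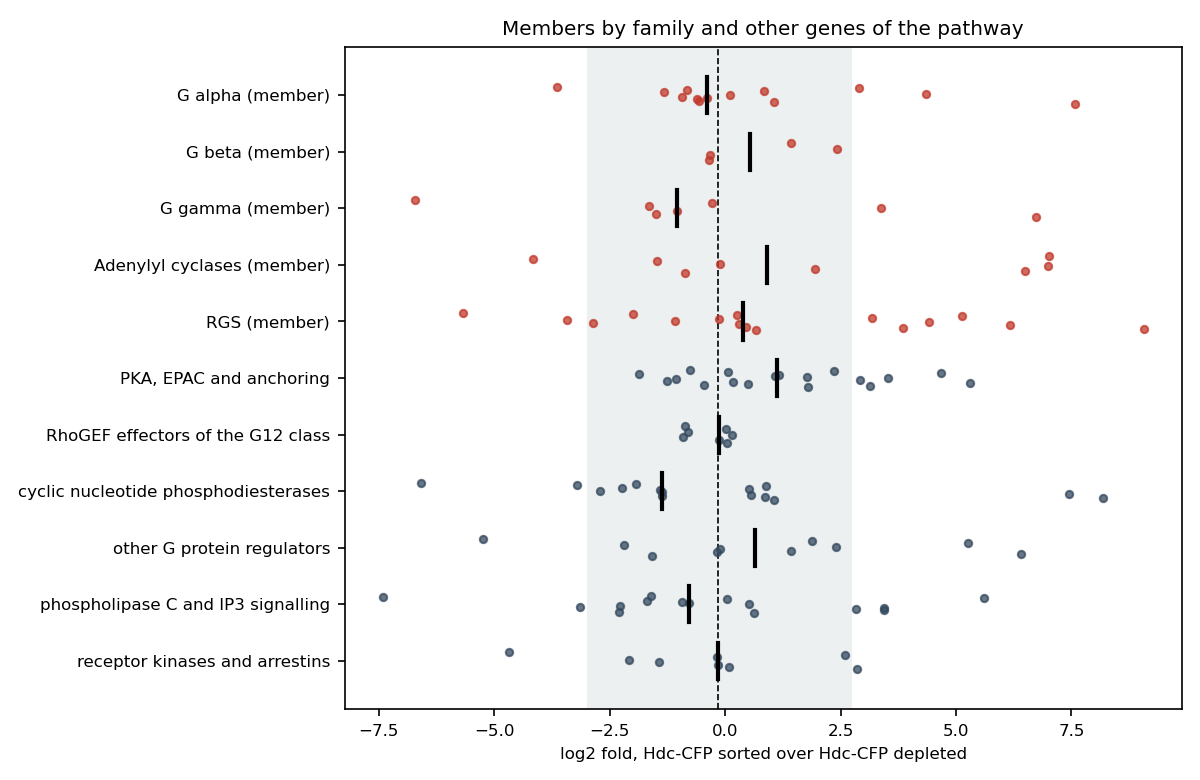
Log2 fold, sorted over depleted library, of the measured members by family (red) and of other pathway genes by list (dark), 1 point a gene, with list medians as vertical bars, the median of all measured genes (-0.16) as a dashed line and their 10th to 90th percentiles shaded. The genes downstream of G12 and G13 lie between -0.91 and 0.15, and every list or family has points on both sides of the dashed line.

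Promoter windows of the 2 genes with the largest fold among the gamma and RGS members, Gng4 and Rgs9, are shown so that the letters of genes that were high together can be read. They are from RefSeq (GRCm38.p6), 250 bases before to 50 after a start site, 5′ to 3′ in the direction of the gene. Gng4 lies at chr13:13783809-13784108 on the plus strand and Rgs9 at chr11:109298132-109298431 on the minus strand. Capitals mark the E-box forms CAGATG and CAGCTG on either strand.
Gng4: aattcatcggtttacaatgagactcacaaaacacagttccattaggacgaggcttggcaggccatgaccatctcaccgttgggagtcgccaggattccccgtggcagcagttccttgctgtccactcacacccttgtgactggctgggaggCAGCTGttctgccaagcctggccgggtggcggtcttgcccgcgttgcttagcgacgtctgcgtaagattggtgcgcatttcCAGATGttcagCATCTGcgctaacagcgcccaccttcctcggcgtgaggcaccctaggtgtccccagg
Rgs9: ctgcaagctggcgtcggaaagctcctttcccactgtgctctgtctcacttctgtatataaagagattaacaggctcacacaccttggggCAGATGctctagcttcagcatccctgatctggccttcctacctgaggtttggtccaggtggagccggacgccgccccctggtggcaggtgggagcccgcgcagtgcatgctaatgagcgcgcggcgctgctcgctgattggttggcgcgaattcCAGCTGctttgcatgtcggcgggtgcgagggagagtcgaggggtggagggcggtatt
Both windows held both forms, with 3 matches in Gng4 and 2 in Rgs9, and a second annotated Gng4 window held none. The windows of Gnao1, Adcy1, Adcy5 and Rgs17, which were also higher, held neither form. A window was found for 43 of the 58 members. CAGATG occurred in 4 of 14 members called higher, 2 of 10 called lower and 3 of 12 called neither, and in 19.2% of all genes with a window. CAGCTG occurred in 2 of 14 (Gng4 and Rgs9), 4 of 10 and 2 of 12, and in 18.3% of all genes. The cyclic AMP response element TGACGTCA, searched on both strands, occurred in none of these 36 members and in 2.03% of all genes. The shorter form TGACGT, which the full element contains, occurred in 8.37% of all genes with a window. Among members it occurred in 2 of 14 called higher (Gng4 and Adcy9), 1 of 10 called lower (Rgs2) and 0 of 12 called neither. The match in Gng4 lay in its second window, which is not shown. Median GC content was 68.5% in windows of members called higher, 66.2% in those called lower and 64.0% in those called neither, beside 52.7% over all windows. A match is a run of letters and was not tested as a binding site.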

How the data were processed

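One CFP-sorted and one CFP-depleted library were analysed. Per the labels' protocols, RNA was column-purified and the TruSeq RNA kit was used. TopHat2 2.0.07, HTSeq and mm9 are named in the submitters' processing notes. Strand setting and annotation release are not given in the sources used here, so reads of overlapping antisense genes cannot be told apart. Each deposited file holds raw counts by Ensembl gene. Its 5 rows that name no gene were left out: 24.2% (CFP-sorted) and 34.3% (CFP-depleted) of alignments were not unique, 1.45% and 1.11% ambiguous, and 9.20% and 4.91% outside genes.

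GENCODE M21 (GRCm38) named 32642 of the 37681 identifiers and gave exon lengths and shared 50-base words. TMM factors (edgeR 4.0.16, all gene rows) were 1.18 for CFP-sorted and 0.849 for CFP-depleted cells. Folds have Clopper-Pearson and levels Poisson 95% intervals (scipy 1.17.1). The fold intervals and calls were run on simulated Poisson counts, which hold counting error only, and the level intervals were not so tested. Log2 folds used 0.5 as a scaled prior count. Alternatives were other scalings (among them DESeq2 1.42.0 size factors), other count minimums and 2 as prior count. Members, lists and rules were chosen with earlier results of these data known, and classes within families after the values were seen. Levels with intervals and folds are given for members called at 4-fold and the 3 highest per kb of each family in either library. Of each pathway list, the 3 highest genes and those called at 4-fold are named. Folds of other genes were chosen after their values were seen.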

Additional observations from a re-analysis of the deposited data

How the results depend on the processing

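No paired analysis was possible because each group held 1 library, and for the same reason no library could be left out. Under 5 other scalings, 43 of the 48 measured members kept their side of the 2-fold rule, and the changes were those of Gnai1, Gng5, Rgs3, Gnal and Rgs11. Directions turned for 6 uncalled members (Adcy3, Gna11, Gnb1, Gnb2, Gng10 and Rgs6), all without a scaling factor, and for Adcy3, Gng10 and Rgs6 also with totals lacking the most abundant genes. Every count of calls stayed within 1.5 times under all alternatives run. Medians shifted with the scaling. They are given in the order all members, alpha, beta, gamma, cyclases, RGS and all measured genes. Without a factor they were 0.47, 0.090, 1.02, -0.56, 1.39, 0.86 and 0.31, where the TMM values were -0.01, -0.38, 0.55, -1.04, 0.92, 0.38 and -0.16. With upper-quartile factors they were 0.10, -0.28, 0.65, -0.93, 1.02, 0.49 and -0.051. With TMM factors from genes with at least 10 counts, added after the data were seen, they were 0.10, -0.27, 0.66, -0.93, 1.03, 0.49 and -0.047. With totals lacking the most abundant genes they were 0.32, -0.061, 0.87, -0.72, 1.24, 0.70 and 0.16. With genes of 1 count or more, the medians of all members, alpha and gamma were 0.14, -0.14 and -0.66. With at least 50 counts, those of all members and cyclases were -0.27 and -0.12. With Rgs7bp and Rgs9bp as members, added later, all members had 0.18 and RGS 0.57. Without members sharing over 10% of their 50-base words, also added later, all members had 0.31 and cyclases 1.95. Family medians of so few and so spread genes thus depend on which genes enter, by the construction of these alternatives. Depth limits the 10 members that were not measured, of which Gngt1 and Rgs8 had 0 counts in both libraries. The Poisson 95% upper limit at 0 counts was 0.292 CPM in CFP-sorted cells and 0.0854 CPM in CFP-depleted cells, and the floor of 3 counts used for bounds was 0.237 CPM against 0.0694 CPM.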

Other observations

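Several members lie next to each other in the mouse genome (gene order from RefSeq, GRCm38.p6), and the folds of those pairs are given. Gna15 and Gna11 are adjacent on chromosome 10, with folds of 0.0776 and 0.766. Gnaq and Gna14 are adjacent on chromosome 19, with 2.07 and 0.567, and Gnat2 and Gnai3 on chromosome 3, with 7.78 and 0.656. Rgs9, with the largest fold of the members at 606, is the neighbour of Gna13 on chromosome 11, whose fold was 0.523. On chromosome 1, Rgs2 and Rgs1, with 1 other protein-coding gene between them, had folds of 0.138 and 0.0935, and Rgs18, again 1 gene further, had 1.20 [0.427 to 2.94] on 7 counts against 20. In the pairs Rgs8 and Rgs16, Rgs5 and Rgs4, Gngt1 and Gng11, and Gnai2 and Gnat1, at least 1 gene was not measured. These pairs were chosen by position, and no test was made.

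Processed pseudogenes of gamma genes were counted as well. Gng5-ps had 21 counts in CFP-sorted cells and 245 in CFP-depleted cells, and Gng2-ps1 had 3 against 18.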
